A study of Mus musculus with 12 samples.

Results

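The genes described here are 40 integrins, selectins and other cell adhesion molecules, listed by name, out of 18193 genes with a probe set on the arrays. The list holds the integrin alpha and beta chains, P-selectin and its ligand, adhesion molecules of the immunoglobulin family, junction proteins, cadherins, Cd44 and Cd47. A probe set was tied to a member where its only gene symbol was that of the member. Where a gene had several, the one brightest on average across the arrays was read. A probe set was found for 39 members, all but Itgad, and 31 members were bright enough to be tested.

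RNA was measured with Affymetrix arrays in leukaemic stem cells from 2 mouse models, each with Msi2 mutant and wild-type donor cells and 3 biological replicates per group. Msi2 encodes Musashi2, an RNA-binding protein, and the design asks what its loss changes in each leukaemia. The mutant donors were homozygous for a gene trap in Msi2 (Msi2 Gt/Gt), and the labels give the strain of all 4 groups, wild-type included, as B6;CB-Msi2Gt(pU-21T)2Imeg. Donor stem and progenitor cells (KLS) were infected with an oncogene and transplanted, and no group received a treatment. The groups were Msi2 mutant and wild-type blast crisis chronic myelogenous leukaemia (bcCML), driven by BCR-ABL and NUP98-HOXA9, and Msi2 mutant and wild-type de novo acute myelogenous leukaemia (AML), driven by MLL-AF9. From bcCML, lineage-negative cells were sorted. From AML, cells that were lineage-negative, Sca1-negative and Kit-positive were sorted. Leukaemia model and sort gate cannot be told apart in any bcCML and AML comparison below, and the antibodies of the lineage mixture are not given in the sources used here.

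Integrins are receptors made of an alpha and a beta chain that join the cell's actin skeleton to the extracellular matrix or to partners on other cells. A chain reaches the cell surface only with a partner, so both genes of a pair have to be expressed in the same cell. In blood-forming tissue, integrins with the Itgb1 chain hold stem and progenitor cells in the marrow by binding Vcam1 and fibronectin, those with Itgb2 serve leukocytes in adhesion and migration, and Itga2b with Itgb3 is the fibrinogen receptor of megakaryocytes and platelets. Selectins and their sugar-bearing ligands carry the first, rolling contact with a vessel wall.

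The probe set chosen for Msi2 read 487, 721 and 608 units in Msi2 mutant bcCML, against 2583, 4319 and 4579 in wild-type bcCML. In AML it read 52.9, 69.1 and 86.9 in mutant cells, against 325, 181 and 430 in wild-type cells. The log2 differences were -2.63 ± 0.34 (SE) in bcCML and -2.11 ± 0.34 in AML, with adjusted p (limma) of 0.02 and 0.0211. Kit, Cd34 and Ptprc, the last a general marker of blood cells, lay above 16 units on all 12 arrays, and no probe set with the single symbol Ly6a, the gene of Sca1, was in the table used. Between 48.4% and 48.8% of probe sets exceeded 16 units on each array, and the lowest value on every array was 4.49 units. Replicate 1 of Msi2 mutant AML stood apart from its group in monocyte genes. Its 11 tested monocyte and macrophage genes averaged 8.80 on the log2 scale, against 10.04 to 10.93 on the other AML arrays.

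Values are intensity units on a linear scale, and 16 units, a log2 value of 4, served as the level above which a probe set was taken as bright. Intensities of different genes come from different probes and are not compared with each other. In every group, 24 of the 39 members with a probe set were above this level on all 3 arrays, and 20 members were above it on all 12 arrays. Itga2, Itga3, Itga7, Itga8, Itga9, Itgb4, Itgb8 and Jam3 were not bright on at least 3 arrays and were not tested. Of these 8 genes, 7 lay between 4.49 and 6.35 units on every array, at or near the floor. Itga9 read 7.58, 6.4 and 6.52 units on the Msi2 mutant bcCML arrays and 14.7, 9.27 and 8.07 on the wild-type bcCML arrays, against 8.07, 9.57 and 10.4 on the Msi2 mutant AML arrays and 23.1, 6.4 and 28.1 on the wild-type AML arrays. Itga9, an alpha chain that pairs with Itgb1, was bright on 2 wild-type AML arrays only.

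Between the leukaemias, adhesion genes split into a group that was higher in bcCML and a group that was higher in AML, and most of the large differences were present in both Msi2 genotypes. Higher in bcCML were Itga2b and Itgb3, the chains of the platelet fibrinogen receptor, the laminin receptor chain Itga6, Icam4 and F11r. Lower in bcCML were the leukocyte integrin genes Itgam, Itgax and Itgb2, the chains Itga1 and Itgb5, and Vcam1, Ncam1 and Cd44. With limma over all genes and a threshold of 0.05 on the adjusted p, 17 of the 31 tested members passed in Msi2 mutant cells, 8 of them higher and 9 lower in bcCML. Of all 10817 genes tested, 45.1% passed in that comparison, 23.2% higher and 21.9% lower. In wild-type cells 17 members passed as well, 6 higher and 11 lower, where 36.9% of all genes passed, 17.7% higher and 19.3% lower. The median log2 difference of the tested members was -0.23 in mutant cells and -0.14 in wild-type cells, beside 0.03 and 0 over all genes.

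Passing in both genotypes were 13 members, 5 higher and 8 lower in bcCML. The counts are not a measure of the set, because some members passed the brightness filter through a single leukaemia and so had to differ. Itga2b, Itgae, Icam4, F11r and Jam2 were dim on all 6 AML arrays, and Itgam, Itgax and Itgb5 were dim on all 6 bcCML arrays. Among the 20 members that were bright on every array, 8 passed in mutant cells and 10 in wild-type cells. The share of all genes bright on every array that passed was not computed. These counts are therefore not shown to be particular to adhesion genes. In bulk RNA such as this, fewer cells of a type and less RNA per cell cannot be told apart.

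**Figure D1:**
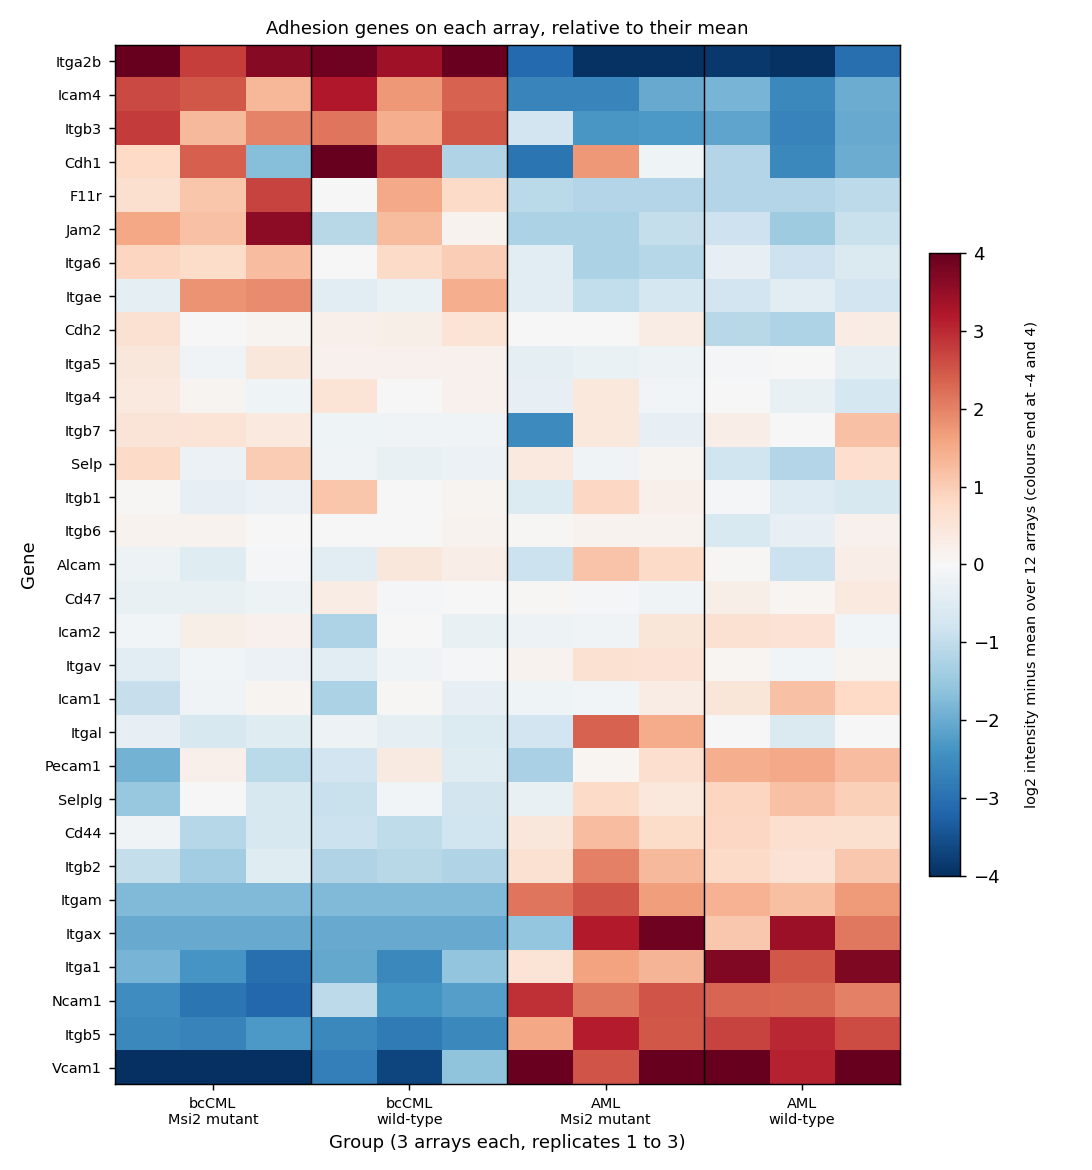
Log2 intensity of the 31 tested adhesion genes (rows, sorted by the bcCML and AML difference) on each of the 12 arrays (columns, 3 per group), as the difference from the gene's mean over all arrays, with red above and blue below the mean. Itga2b, Itgb3 and Icam4 are red on all 6 bcCML arrays, and Vcam1, Itgb5 and Ncam1 are red on all 6 AML arrays.

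The promoters of Itga2b, Icam4, Itgam and Itgax are shown as examples of genes bright in a single leukaemia, the first pair in bcCML and the second pair in AML. Promoters are the RefSeq sequence of GRCm38.p6 from 250 bases before to 50 bases after the transcription start, written 5′ to 3′ in the direction of the gene, and 23 members had one in the table used. Capitals mark matches on either strand to AGATAA, which reads TTATCT on the other strand, the core bound by GATA factors of erythroid and megakaryocytic cells, and to GAGGAA, which reads TTCCTC on the other strand, a core bound by the myeloid factor PU.1. No match overlaps another in these windows.
Itga2b, chr11:102469834-102470133, minus strand: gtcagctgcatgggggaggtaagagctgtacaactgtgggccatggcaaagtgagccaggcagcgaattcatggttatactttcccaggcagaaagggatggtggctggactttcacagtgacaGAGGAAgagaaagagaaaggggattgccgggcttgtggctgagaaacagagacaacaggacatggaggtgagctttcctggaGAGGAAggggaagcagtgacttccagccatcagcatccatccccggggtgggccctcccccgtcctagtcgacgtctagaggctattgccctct
Icam4, chr9:21029182-21029481, plus strand: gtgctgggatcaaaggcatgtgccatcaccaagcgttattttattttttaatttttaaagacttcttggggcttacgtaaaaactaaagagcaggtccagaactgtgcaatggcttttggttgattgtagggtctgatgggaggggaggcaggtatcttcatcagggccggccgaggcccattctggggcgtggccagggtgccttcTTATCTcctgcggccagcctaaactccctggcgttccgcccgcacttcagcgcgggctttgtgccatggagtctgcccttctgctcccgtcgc
Itgam, chr7:128062390-128062689, plus strand: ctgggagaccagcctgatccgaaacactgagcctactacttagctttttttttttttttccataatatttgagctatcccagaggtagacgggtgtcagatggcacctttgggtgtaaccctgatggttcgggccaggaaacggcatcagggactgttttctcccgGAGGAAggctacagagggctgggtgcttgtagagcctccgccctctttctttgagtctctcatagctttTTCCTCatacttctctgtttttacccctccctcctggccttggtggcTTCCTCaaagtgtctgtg
Itgax, chr7:128129300-128129599, plus strand: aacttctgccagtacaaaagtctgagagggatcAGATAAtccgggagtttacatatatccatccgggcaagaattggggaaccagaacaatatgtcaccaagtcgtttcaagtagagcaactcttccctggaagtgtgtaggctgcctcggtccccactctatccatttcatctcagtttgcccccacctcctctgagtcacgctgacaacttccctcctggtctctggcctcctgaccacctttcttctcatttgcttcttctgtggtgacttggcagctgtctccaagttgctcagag
The Itga2b window held 2 matches to GAGGAA and none to AGATAA, and the Icam4 window held 1 match to AGATAA and none to GAGGAA. In the Itgam window there were 3 matches to GAGGAA and none to AGATAA, and in the Itgax window 1 to AGATAA and none to GAGGAA. F11r, bright in bcCML alone, and Itgb5, bright in AML alone, also had a promoter in the table used and are not shown. The F11r window held 1 match to GAGGAA and none to AGATAA, and the Itgb5 window held no match to either. Of 32851 promoters of this length, 11.2% held AGATAA and 28.3% held GAGGAA, so such letters are common.

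Of the tested members, Itga2b had the widest rise in bcCML in both genotypes. Itga2b read 1231, 472 and 864 units on the Msi2 mutant bcCML arrays and 1038, 732 and 1087 on the wild-type bcCML arrays, against 8.1, 4.51 and 4.5 on the Msi2 mutant AML arrays and 4.81, 4.52 and 8.65 on the wild-type AML arrays. Every bcCML array was bright and every AML array was dim, so the ratio is a lower bound, at least 49.6-fold higher in bcCML with mutant cells and at least 58.6-fold higher with wild-type cells. These bounds set the brighter group's mean log2 against 16 units, and the adjusted p (limma) was 3.38e-07 in mutant and 3.4e-07 in wild-type cells. Itgb3 read 9136, 3193 and 5213 units on the Msi2 mutant bcCML arrays and 5780, 3544 and 7344 on the wild-type bcCML arrays, against 770, 260 and 265 on the Msi2 mutant AML arrays and 305, 204 and 326 on the wild-type AML arrays. Itgb3, the beta partner of Itga2b, was bright everywhere and its lowest bcCML array stood above its highest AML array. Its log2 difference was 3.83 ± 0.50 (SE) in mutant cells and 4.29 ± 0.50 in wild-type cells, with adjusted p (limma) of 0.000154 and 9.52e-05. A second Itgb3 probe set, much dimmer, gave 2.16 and 2.09, neither past the threshold. The 7 tested megakaryocyte and platelet genes averaged 6.28 to 8.90 (log2) per array in bcCML, against 3.13 to 4.57 in AML. Pf4, Ppbp, Gp5 and Gp9 passed higher in bcCML in both genotypes, and Gp1bb in wild-type cells alone. Vwf and Clec1b passed in neither, at -0.33 and 0.75 (log2) in mutant cells and 0.15 and 0.74 in wild-type cells. Of the whole list, Ppbp, Gp5, Gp6 and Treml1 were dim on all AML arrays. Ppbp and Gp5 were bright on all bcCML arrays. Gp6 was dim on all bcCML arrays as well, and Treml1 on all but mutant replicate 1, at 29.9 units. Neither Gp6 nor Treml1 was tested. Within bcCML, the replicate 2 arrays had the lowest Itga2b, the lowest Itgb3 and the lowest mean of this list in both genotypes. The part of megakaryocytic cells in the Itga2b and Itgb3 result was not tested.

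Icam4 is an adhesion molecule of the immunoglobulin family, known in human as the LW antigen of red cells. Icam4 read 242, 215 and 97.6 units on the Msi2 mutant bcCML arrays and 356, 128 and 198 on the wild-type bcCML arrays, against 6.19, 6.18 and 9.52 on the Msi2 mutant AML arrays and 10.6, 6.42 and 9.7 on the wild-type AML arrays. All bcCML arrays were bright and all AML arrays dim, a ratio of at least 10.7-fold in mutant and at least 13-fold in wild-type cells, with adjusted p (limma) of 1.64e-05 and 2.32e-05. The 4 tested erythroid genes averaged 9.66 to 11.04 on the log2 scale in bcCML, against 4.77 to 5.11 in AML. Klf1, Epor and Car1 were dim on all AML arrays and bright on all bcCML arrays. Alas2 was dim on all AML and all mutant bcCML arrays, and read 37.7, 4.52 and 4.53 units on the wild-type bcCML arrays. Hba-a1 was dim on every array of both leukaemias, and neither Alas2 nor Hba-a1 was tested. The part of erythroid cells was not tested.

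F11r and Jam2 are junctional adhesion molecules of endothelia, epithelia and platelets. F11r read 15.9, 21.9 and 66.5 units on the Msi2 mutant bcCML arrays and 10.1, 29.1 and 17.3 on the wild-type bcCML arrays, against 4.83, 4.51 and 4.52 on the Msi2 mutant AML arrays and 4.51, 4.52 and 4.88 on the wild-type AML arrays. F11r stayed at the floor in AML and was modest in bcCML, with bounds of at least 1.78-fold in mutant and at least 1.08-fold in wild-type cells and adjusted p (limma) of 0.00158 and 0.0122. On the log2(intensity + 16) scale the wild-type difference no longer passed, with an adjusted p (limma) of 0.0949. Jam2 read 49.4, 38.3 and 203 units on the Msi2 mutant bcCML arrays and 7.86, 40.7 and 18.5 on the wild-type bcCML arrays, against 7.04, 7.04 and 8.82 on the Msi2 mutant AML arrays and 9.55, 6.28 and 9.14 on the wild-type AML arrays. Jam2 was at least 4.55-fold higher in bcCML with mutant cells (adjusted p 0.00256, limma), and its wild-type arrays overlapped between the leukaemias (adjusted p 0.204). Of 7 endothelial markers only Tie1 was bright enough to be tested. It averaged 2.73 to 7.64 on the log2 scale on the bcCML arrays, against 2.29 to 2.79 on the AML arrays, and Cdh5, Kdr and Emcn were dim on all 12.

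The leukocyte integrins share the Itgb2 chain, and 3 of their 4 tested genes were lower in bcCML in both genotypes. Of all genes, 21.9% passed lower in mutant cells and 19.3% in wild-type cells. Itgam and Itgax passed the brightness filter through AML alone and so had to differ, which leaves the count no measure of this group. Itgam read 4.52, 4.51 and 4.51 units on the Msi2 mutant bcCML arrays and 4.49, 4.51 and 4.5 on the wild-type bcCML arrays, against 66.8, 86.6 and 48.8 on the Msi2 mutant AML arrays and 39.9, 35 and 49.6 on the wild-type AML arrays. Itgam, the chain known as CD11b and a usual antigen of lineage antibody mixtures, lay at the floor on every bcCML array. It was at least 4.10-fold lower in bcCML with mutant cells and at least 2.57-fold lower with wild-type cells, with adjusted p (limma) of 2.53e-07 and 1.29e-06. Itgax read 4.52, 4.51 and 4.52 units on the Msi2 mutant bcCML arrays and 4.51, 4.52 and 4.51 on the wild-type bcCML arrays, against 6.35, 165 and 274 on the Msi2 mutant AML arrays and 38.6, 198 and 79.1 on the wild-type AML arrays. Itgax, the chain known as CD11c, was also at the floor on all bcCML arrays, while the AML arrays scattered and replicate 1 of mutant AML was dim. The bounds were at least 4.12-fold lower in mutant and at least 5.29-fold lower in wild-type bcCML, with adjusted p (limma) of 0.0197 and 0.0158. The Itgax call depended on single arrays. In mutant cells it was lost without AML replicate 2 (adjusted p 0.0729, limma), AML replicate 3 (0.0721) or bcCML replicate 2 (0.0504), and in wild-type cells without AML replicate 2 (0.0583).

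Itgb2 read 1037, 766 and 1450 units on the Msi2 mutant bcCML arrays and 870, 940 and 884 on the wild-type bcCML arrays, against 3088, 8256 and 4940 on the Msi2 mutant AML arrays and 3422, 3048 and 4312 on the wild-type AML arrays. Itgb2 was bright everywhere and lower on every bcCML array than on any AML array, by -2.26 ± 0.34 (log2, SE) in mutant and -1.99 ± 0.34 in wild-type cells (adjusted p 0.000374 and 0.00114, limma). Itgal read 598, 482 and 544 units on the Msi2 mutant bcCML arrays and 660, 589 and 520 on the wild-type bcCML arrays, against 442, 3883 and 2098 on the Msi2 mutant AML arrays and 767, 509 and 762 on the wild-type AML arrays. Itgal, the lymphocyte and leukocyte chain CD11a, did not pass in either genotype, at -1.51 (adjusted p 0.0683, limma) and -0.19 (0.836). A dimmer Itgal probe set gave -2.68 in mutant cells with an adjusted p over probe sets of 0.0388 (limma). The 11 tested monocyte and macrophage genes averaged 5.06 to 5.84 on the log2 scale in bcCML, against 8.80 to 10.93 in AML, and Csf1r, Cd14, Mpeg1 and Ms4a6c were dim on all bcCML arrays. Fcgr1 of the same list went the other way, dim on all AML arrays and bright on all 3 wild-type bcCML arrays. It was at least 1.57-fold higher in wild-type bcCML (adjusted p 0.0038, limma), and did not pass in mutant cells (0.483). The 10 tested granulocyte genes averaged 7.05 to 9.17 in bcCML, against 11.89 to 13.04 in AML. The part of these cells in the Itgam, Itgax and Itgb2 differences was not tested.

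**Figure D2:**
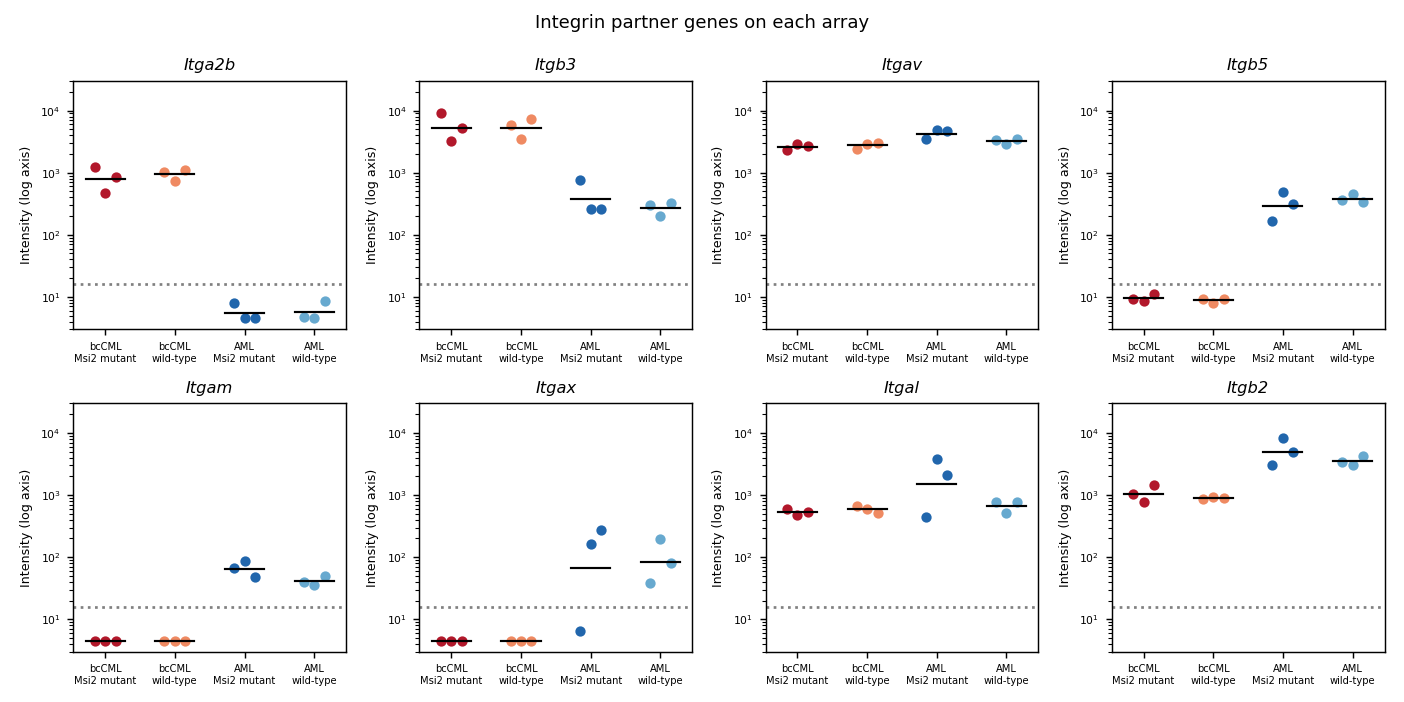
Intensity of 8 integrin genes on each array (points, log axis) in the 4 groups, with the bar at the mean of the log2 values and the dotted line at 16 units. Itga2b and Itgb3 are high in both bcCML groups, and Itgb5, Itgam and Itgax lie below the line on all 6 bcCML arrays.

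Itgav pairs with several beta chains to bind vitronectin and other matrix proteins, and Itgb5 is one of these partners. Itgb5 read 9.35, 8.71 and 11.3 units on the Msi2 mutant bcCML arrays and 9.34, 7.93 and 9.35 on the wild-type bcCML arrays, against 164, 488 and 312 on the Msi2 mutant AML arrays and 366, 449 and 342 on the wild-type AML arrays. Every bcCML array was dim and every AML array bright, a ratio of at least 18.3-fold in mutant and at least 24-fold in wild-type cells (adjusted p 1.32e-06 and 8.18e-07, limma). All 4 Itgb5 probe sets were lower in bcCML. Itgav read 2359, 2932 and 2665 units on the Msi2 mutant bcCML arrays and 2384, 2872 and 3043 on the wild-type bcCML arrays, against 3453, 4790 and 4718 on the Msi2 mutant AML arrays and 3326, 2925 and 3439 on the wild-type AML arrays. Itgav was bright on every array and differed little, by -0.69 ± 0.17 in mutant cells (log2, SE, adjusted p 0.00757, limma) and by -0.23 in wild-type cells (0.325). The other Itgav probe sets gave -0.27, -2.14 and 0.18 in mutant cells. Itgb6, a further partner of Itgav known from epithelia, lay between 15.2 and 26.2 units on all 12 arrays and did not pass.

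Among the chains that pair with Itgb1, Itga1, a collagen receptor, had the widest difference between the leukaemias. Itga1 read 84.5, 59.5 and 38.2 units on the Msi2 mutant bcCML arrays and 74.8, 51.1 and 102 on the wild-type bcCML arrays, against 451, 929 and 778 on the Msi2 mutant AML arrays and 4008, 1705 and 4084 on the wild-type AML arrays. The groups did not overlap, and the log2 difference was -3.58 ± 0.44 (SE) in mutant and -5.38 ± 0.44 in wild-type cells (adjusted p 0.000107 and 8.02e-06, limma). Itga6 read 7788, 7087 and 10054 units on the Msi2 mutant bcCML arrays and 4278, 7226 and 8513 on the wild-type bcCML arrays, against 3198, 1783 and 1959 on the Msi2 mutant AML arrays and 3411, 2438 and 2854 on the wild-type AML arrays. Itga6, a laminin receptor chain of stem cells and platelets, was higher in bcCML by 1.88 ± 0.30 in mutant and 1.16 ± 0.30 in wild-type cells (log2, SE, adjusted p 0.00057 and 0.0118, limma). Without bcCML replicate 3 the wild-type value missed the threshold, with an adjusted p of 0.0503 (limma).

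Itga5 read 786, 517 and 782 units on the Msi2 mutant bcCML arrays and 646, 644 and 649 on the wild-type bcCML arrays, against 440, 476 and 500 on the Msi2 mutant AML arrays and 537, 563 and 450 on the wild-type AML arrays. Itga5, the fibronectin receptor chain, passed in mutant cells by a small margin of 0.53 ± 0.17 (log2, SE, adjusted p 0.03, limma) and not in wild-type cells (0.33, 0.17). Its other bright probe sets gave -0.25 and -0.01 in mutant cells, and the mean over probe sets gave 0.09 with an adjusted p of 0.713 (limma). The call was also lost without mutant AML replicate 1 (0.075) or 2 (0.0633), or without mutant bcCML replicate 1 (0.103) or bcCML replicate 3 (0.109). Itga4 read 6015, 4938 and 4093 units on the Msi2 mutant bcCML arrays and 6666, 4506 and 5151 on the wild-type bcCML arrays, against 3651, 6065 and 4263 on the Msi2 mutant AML arrays and 4483, 3757 and 2806 on the wild-type AML arrays. Itga4, which with Itgb1 binds Vcam1, was bright on every array and did not pass (0.12, adjusted p 0.73 in mutant cells, and 0.57, 0.105 in wild-type cells, limma). Its mutant arrays overlapped between the leukaemias, and its wild-type arrays just missed doing so. Itgb1 read 682, 525 and 565 units on the Msi2 mutant bcCML arrays and 1447, 675 and 720 on the wild-type bcCML arrays, against 452, 1179 and 765 on the Msi2 mutant AML arrays and 637, 463 and 428 on the wild-type AML arrays. Itgb1, the common beta chain, overlapped in mutant cells and not in wild-type cells, and did not pass in either (adjusted p 0.495 and 0.109, limma).

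Itgb7 pairs with Itga4 and with Itgae in lymphocytes, and its pair with Itgae binds E-cadherin on epithelia. Itgb7 read 1409, 1457 and 1313 units on the Msi2 mutant bcCML arrays and 888, 903 and 890 on the wild-type bcCML arrays, against 168, 1315 and 785 on the Msi2 mutant AML arrays and 1198, 1012 and 2227 on the wild-type AML arrays. Itgb7 did not pass (adjusted p 0.103 in mutant and 0.444 in wild-type cells, limma), and its AML arrays varied far more than its bcCML arrays. Itgae read 8.08, 36.6 and 39.4 units on the Msi2 mutant bcCML arrays and 7.95, 8.75 and 28.7 on the wild-type bcCML arrays, against 7.89, 5.31 and 6.52 on the Msi2 mutant AML arrays and 6.26, 7.94 and 6.27 on the wild-type AML arrays. Itgae was dim on all AML arrays and bright on 2 mutant and 1 wild-type bcCML arrays. It passed in mutant cells at a bound of at least 1.42-fold (adjusted p 0.0361, limma). That call was lost without mutant AML replicate 1 (0.0539), 2 (0.0978) or 3 (0.0758), or without mutant bcCML replicate 2 (0.125) or 3 (0.128). Cdh1 read 79.3, 236 and 13.9 units on the Msi2 mutant bcCML arrays and 787, 292 and 19.7 on the wild-type bcCML arrays, against 6.04, 150 and 39.8 on the Msi2 mutant AML arrays and 20.3, 7.61 and 11.4 on the wild-type AML arrays. Cdh1, which encodes E-cadherin, ranged widely within both leukaemias and did not pass (adjusted p 0.648 in mutant and 0.0775 in wild-type cells, limma). The 5 tested mast cell, basophil and eosinophil genes averaged 7.68, 9.29 and 5.19 (log2) on the mutant and 9.85, 9.12 and 7.42 on the wild-type bcCML arrays, with the lowest value on replicate 3 of each, as for Cdh1. Their part in the Cdh1 spread was not tested.

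Selp encodes P-selectin of platelets and endothelium, and Selplg encodes PSGL, its ligand on leukocytes. Selp read 293, 147 and 351 units on the Msi2 mutant bcCML arrays and 158, 141 and 146 on the wild-type bcCML arrays, against 226, 157 and 184 on the Msi2 mutant AML arrays and 100, 77.3 and 276 on the wild-type AML arrays. Selp overlapped between the leukaemias in both genotypes. Another Selp probe set was lower in wild-type bcCML (-1.13, adjusted p over probe sets 0.0303, limma). Selplg read 442, 1271 and 809 units on the Msi2 mutant bcCML arrays and 683, 1172 and 749 on the wild-type bcCML arrays, against 1028, 2125 and 1700 on the Msi2 mutant AML arrays and 2269, 2818 and 2450 on the wild-type AML arrays. Selplg was lower in wild-type bcCML by -1.57 ± 0.39 (log2, SE, adjusted p 0.00958, limma), and in mutant cells it gave -1.01 with an adjusted p of 0.0559 (limma).

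In the immunoglobulin family, Vcam1 and Ncam1 had the widest falls in bcCML. Vcam1 read 8, 4.58 and 7.55 units on the Msi2 mutant bcCML arrays and 24.8, 13 and 54.2 on the wild-type bcCML arrays, against 2562, 945 and 2648 on the Msi2 mutant AML arrays and 3913, 1409 and 2679 on the wild-type AML arrays. Vcam1, a counter-receptor of Itga4 with Itgb1 on marrow stroma and on macrophages, was dim on all mutant bcCML arrays by its chosen probe set. Its ratio there was at least 116-fold lower in bcCML (adjusted p 2.5e-06, limma), and with wild-type cells the log2 difference was -6.56 ± 0.58 (SE, 1.54e-05). All 3 Vcam1 probe sets were lower in bcCML in both genotypes, but the bound holds for the chosen one alone. The others gave smaller log2 differences, -4.77 and -3.72 in mutant cells and -5.36 and -4.43 in wild-type cells. Ncam1 read 387, 284 and 245 units on the Msi2 mutant bcCML arrays and 1046, 414 and 467 on the wild-type bcCML arrays, against 16486, 9320 and 12471 on the Msi2 mutant AML arrays and 10956, 10716 and 8769 on the wild-type AML arrays. Ncam1, the neural adhesion molecule CD56, was bright in both leukaemias, and lower in bcCML by -5.37 ± 0.35 (log2, SE) in mutant and -4.10 ± 0.35 in wild-type cells (adjusted p 1.14e-06 and 1.04e-05, limma). Of 8 T and NK cell markers with a probe set, Cd3e, Cd3d, Cd3g, Cd5 and Ncr1 were dim on all 12 arrays. Nkg7 was bright on all 12, at 1482 to 10650 units, and higher in wild-type bcCML by 1.55 ± 0.36 (log2, SE, adjusted p 0.0074, limma). Cd2 was bright on all 3 wild-type AML arrays and dim on all bcCML arrays, and Gzma reached 969 units on mutant bcCML replicate 2. The part of such cells in the Ncam1 difference was not tested. Of the 4 stromal genes tested the mean was 5.29 to 7.06 (log2) in bcCML, against 4.62 to 5.83 in AML.

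Icam1 read 166, 287 and 346 units on the Msi2 mutant bcCML arrays and 133, 325 and 252 on the wild-type bcCML arrays, against 283, 296 and 393 on the Msi2 mutant AML arrays and 442, 720 and 556 on the wild-type AML arrays. Icam1, a ligand of the Itgb2 integrins, was lower in wild-type bcCML by -1.34 ± 0.36 (log2, SE, adjusted p 0.0155, limma). The value in mutant cells was -0.33 (0.492). Without AML replicate 2 (0.0566) or bcCML replicate 1 (0.051) the wild-type call was lost. Pecam1 read 27.1, 117 and 47.8 units on the Msi2 mutant bcCML arrays and 59.8, 129 and 72.8 on the wild-type bcCML arrays, against 41.3, 107 and 160 on the Msi2 mutant AML arrays and 277, 292 and 238 on the wild-type AML arrays. Pecam1, a homophilic molecule of endothelium, platelets and leukocytes, was lower in wild-type bcCML by -1.70 ± 0.58 (log2, SE, adjusted p 0.0421, limma), a call that was lost in 7 of 12 fits that left out an array. They were the fits without AML wild-type replicates 1, 2 and 3 (0.0962, 0.099 and 0.0726), AML mutant replicate 2 (0.0532), bcCML wild-type replicates 1 and 3 (0.125 and 0.11) and bcCML mutant replicate 3 (0.0569). Icam2 and Alcam did not pass, and read 462 to 1676 and 1302 to 5223 units over all arrays. Another Alcam probe set was lower in mutant bcCML (-1.49, adjusted p over probe sets 0.0311, limma).

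Cd44 read 4939, 2440 and 3506 units on the Msi2 mutant bcCML arrays and 2957, 2670 and 3142 on the wild-type bcCML arrays, against 7411, 12860 and 9053 on the Msi2 mutant AML arrays and 9629, 8719 and 8467 on the wild-type AML arrays. Cd44, the hyaluronan receptor, was lower on every bcCML array than on any AML array, by -1.45 ± 0.26 (log2, SE) in mutant and -1.61 ± 0.26 in wild-type cells (adjusted p 0.00127 and 0.000864, limma). Cd47, which signals to Sirpa on phagocytes, lay between 6731 and 10947 units on all 12 arrays by its chosen probe set, which did not pass. Of the 4 other bright Cd47 probe sets, 1 was lower in bcCML in both genotypes (-0.65 in mutant and -0.50 in wild-type cells, adjusted p over probe sets 0.0101 and 0.0411, limma) and 1 in mutant cells (-0.97, 0.0073). Cdh2 read 92.1, 59.9 and 64.3 units on the Msi2 mutant bcCML arrays and 69.8, 71.5 and 87.3 on the wild-type bcCML arrays, against 60.4, 61.1 and 74.6 on the Msi2 mutant AML arrays and 28.1, 25.5 and 74.5 on the wild-type AML arrays. Cdh2, which encodes N-cadherin, passed in wild-type cells (1.01, adjusted p 0.0487, limma), with overlapping arrays and a second probe set at 0.07. Of 12 fits that left out an array it passed in 1 alone, without AML wild-type replicate 3, and the adjusted p (limma) was 0.0522 to 0.167 without each of the other 11 arrays.

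Selplg, Pecam1, Icam1 and Cdh2 passed in wild-type cells alone, and Itga5, Itgae, Itgav and Jam2 in mutant cells alone. No member passed the test of the difference between genotypes, so none of these 8 is shown to differ between them.

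**Figure D3:**
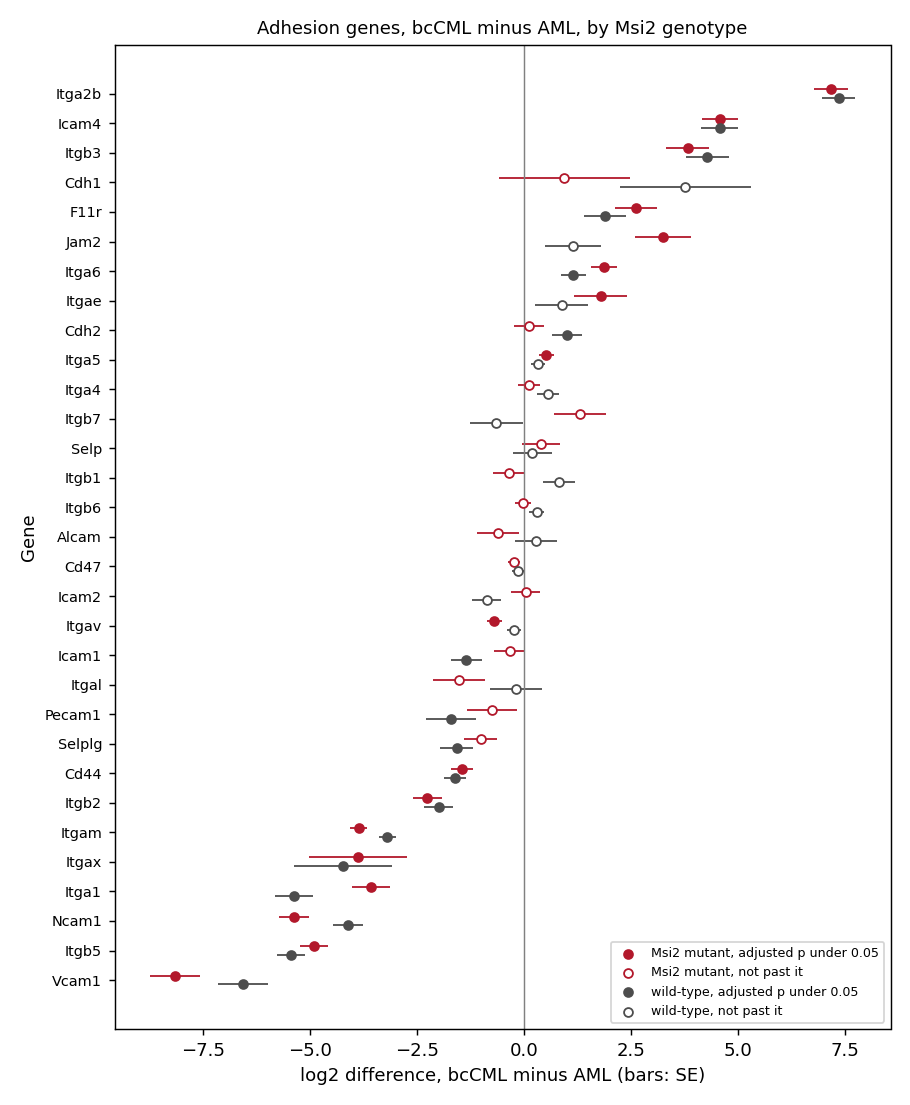
Log2 difference, bcCML minus AML, of each of the 31 tested adhesion genes (rows) in Msi2 mutant cells (red) and wild-type cells (grey), with SE as bars, and filled points where the adjusted p was under 0.05. Itga2b lies farthest to the right at 7.18 and 7.36, and Vcam1 farthest to the left at -8.16 and -6.56. Genes dim in a whole leukaemia have fitted values that depend on the floor.

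Integrin chains were then read as the 22 alpha and beta pairs known to form, of which 14 had both chains tested. Both chains were bright on every array in 10 pairs in each bcCML group and in 11 pairs in each AML group. In mutant cells, both chains passed in the same direction in 4 pairs, in opposite directions in 1, a single chain passed in 7 and none in 2. In wild-type cells the counts were 3, 0, 5 and 6. Itga2b with Itgb3 was the pair with both chains higher in bcCML, and Itgam and Itgax, each with Itgb2, the pairs with both lower, in both genotypes. Itgav with Itgb5 joined the lower pairs in mutant cells. Itgav with Itgb3 was the opposed pair there, with the alpha chain lower and the beta chain higher. Every pair with both chains passing in the same direction holds a chain that was dim on all arrays of 1 leukaemia. These chains are Itga2b, Itgam, Itgax and Itgb5. Such a chain had to differ to be tested, so the counts do not measure agreement within pairs. Of all single genes, 45.1% passed in mutant and 36.9% in wild-type cells, and no such share was taken for pairs. Pairs that share a chain are not independent of each other.

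Receptors and their partners on other cells gave 10 further pairs, 8 with both genes tested. Both genes passed in the same direction in 0 of them in mutant and 1 in wild-type cells, and a single gene in 5 and 5. Of all single genes, 45.1% passed in mutant and 36.9% in wild-type cells, and no share was taken for such pairs. The wild-type pair was Itgam with Icam1, both lower in bcCML. Itgam was dim on all bcCML arrays and so had to differ to be tested. The Icam1 call was lost without AML replicate 2 or bcCML replicate 1, so this pair is no measure of agreement. For Itga4 and Vcam1 the receptor gene did not pass in either genotype and the ligand gene fell in both.

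Between Msi2 mutant and wild-type cells, a single adhesion gene passed the test. In AML, Itga1 fell in the mutant, and no other member passed. Itga1 gave 451, 929 and 778 units on the Msi2 mutant AML arrays, against 4008, 1705 and 4084 on the wild-type AML arrays. All 3 mutant arrays were below all 3 wild-type arrays, with means of 720 ± 245 units in mutant and 3266 ± 1350 in wild-type AML (SD, n = 3 arrays each). The log2 difference was -2.14 ± 0.44 (SE) with an adjusted p of 0.0445 (limma), the 1 member called of 31 tested, where 1.52% of all genes were called and 1.14% were called lower. A second Itga1 probe set fell by 2.76 on the log2 scale, with an adjusted p over probe sets of 0.029 (limma), where the first had 0.053 on that footing. The Itga1 call was a near one: of 12 fits that left out an array it passed in 1, without AML wild-type replicate 2 (0.0247), and in the 11 others the adjusted p (limma) was 0.0528 to 0.168, with log2 differences of -2.56 to -1.83 over all 12. It was also lost with the replicate block (0.14), with only the AML arrays fitted (0.207), with no filter (0.0987) and with arrays centred on their medians (0.0733). Other markers were read in the same comparison. Of 10 tested granulocyte genes, 7 were higher on every mutant AML array than on any wild-type one, as were 5.18% of all genes. The mean log2 of the granulocyte list per array was 12.73 to 13.04 in mutant AML, against 11.89 to 12.82 in wild-type AML. Ltf passed higher (2.66 ± 0.55, log2, SE, adjusted p 0.0467, limma) and Mmp8 passed lower (-3.34 ± 0.38, 0.00499). The progenitor genes Cd34 and Flt3 gave -2.70 and -3.09, and the granulocyte gene Mpo gave 2.25, with adjusted p (limma) of 0.0946, 0.0926 and 0.259. None of these passed. Kit and Ptprc, listed with Cd34 as sort markers, went the other way, at 0.41 and 0.24 (adjusted p 0.851 and 0.859, limma). Of the 5 tested genes in the dendritic list that holds Flt3, 4 were lower and 1 higher. The part of all these markers in the Itga1 result was not tested.

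In bcCML, Itga1 was low in both genotypes, at -0.34 (log2), and the difference between the leukaemias in the mutant effect was 1.80 ± 0.62 (log2, SE, adjusted p 0.395, limma).

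The median log2 difference of the 31 members in AML was -0.06, beside -0.05 over all genes, and 5 members had an unadjusted p under 0.05 (limma), as did 14.2% of all genes. They were Itga1, Itgam, Itgav, Pecam1 and Icam1. Itgam gave 66.8, 86.6 and 48.8 units on the Msi2 mutant AML arrays, against 39.9, 35 and 49.6 on the wild-type AML arrays. The Itgam arrays overlapped (0.68 ± 0.20, log2, SE, adjusted p 0.151, limma). Itgav gave 3453, 4790 and 4718 units on the Msi2 mutant AML arrays, against 3326, 2925 and 3439 on the wild-type AML arrays. Itgav was higher on every mutant array than on any wild-type array, at 0.41 ± 0.17 (adjusted p 0.31, limma). Pecam1 gave 41.3, 107 and 160 units on the Msi2 mutant AML arrays, against 277, 292 and 238 on the wild-type AML arrays. For Pecam1 the mutant arrays were all below the wild-type arrays, at -1.59 ± 0.58 (adjusted p 0.239, limma).

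Icam1 gave 283, 296 and 393 units on the Msi2 mutant AML arrays, against 442, 720 and 556 on the wild-type AML arrays. Icam1 also did not overlap, at -0.81 ± 0.36 (log2, SE, adjusted p 0.351, limma). Selplg gave 1028, 2125 and 1700 units on the Msi2 mutant AML arrays, against 2269, 2818 and 2450 on the wild-type AML arrays. Selplg did not overlap either, at -0.69 ± 0.39 (adjusted p 0.48, limma). Together with Cd47, 5 members lay lower on every mutant array and 1 higher, where 11.6% and 5.18% of all genes did so. Mutant AML replicate 1, the array with few monocyte transcripts, was the lowest AML array for 13 of the 31 tested members and the highest for 2. The 13 include Itga1, Pecam1, Icam1 and Selplg, which lay lower on every mutant array, and also Itgax, Itgal and Itgb7. The share of all genes with this array lowest or highest was not computed, so these counts are not shown to be particular to adhesion genes. Without this array, Itgal was the 1 member called, and Itga1 gave -1.83 with an adjusted p of 0.0896 (limma).

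In bcCML, 0 of the 31 members passed (limma), where 0.139% of all genes passed, and the median difference was 0, beside -0.02 over all genes. Vcam1, Ncam1, Cd47 and Jam2 were the 4 members with an unadjusted p under 0.05 (limma), where 8.32% of all genes had one. Vcam1 gave 8, 4.58 and 7.55 units on the Msi2 mutant bcCML arrays, against 24.8, 13 and 54.2 on the wild-type bcCML arrays. All mutant Vcam1 arrays were dim and below the wild-type arrays (-2 ± 0.58, log2, SE, adjusted p 0.386, limma), while the other Vcam1 probe sets gave 0.21 and 0.01. Ncam1 gave 387, 284 and 245 units on the Msi2 mutant bcCML arrays, against 1046, 414 and 467 on the wild-type bcCML arrays. The Ncam1 arrays did not overlap (-0.97 ± 0.35, adjusted p 0.531, limma). The other bright Ncam1 probe sets gave -2.67, -0.06 and 0.01, none past the threshold over probe sets. Cd47 gave 6806, 6731 and 7233 units on the Msi2 mutant bcCML arrays, against 10331, 8012 and 8447 on the wild-type bcCML arrays. Cd47, also without overlap, gave -0.36 ± 0.14 (adjusted p 0.554, limma).

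Jam2 gave 49.4, 38.3 and 203 units on the Msi2 mutant bcCML arrays, against 7.86, 40.7 and 18.5 on the wild-type bcCML arrays. The Jam2 arrays overlapped by a single pair, and the difference was 2.01 ± 0.66 (log2, SE, adjusted p 0.468, limma). Itgb7 gave 1409, 1457 and 1313 units on the Msi2 mutant bcCML arrays, against 888, 903 and 890 on the wild-type bcCML arrays. Itgb7 was the 1 member higher on every mutant array (0.64, adjusted p 0.849, limma), and 3 were lower, where 5.83% and 10.1% of all genes did so. For Selp, the chosen probe set gave 0.74 and the others gave 2.19 and 1.69, none past the threshold over probe sets.

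As a mean over both leukaemias, the effect of the Msi2 mutation passed for 0 members (limma), where 0.471% of all genes passed. An unadjusted p under 0.05 was found for 5 members and for 13.7% of all genes. The smallest p were those of Itga1 (-1.24 ± 0.31, log2, SE, adjusted p 0.113, limma), Cd47 (-0.32 ± 0.10, 0.188), Vcam1 (-1.20 ± 0.41, 0.229) and Pecam1 (-1.11 ± 0.41, 0.262). Cd47, by its chosen probe set, was lower on every mutant array than on any wild-type array of its own leukaemia, while its 4 other bright probe sets gave 0.01, -0.11, -0.05 and 0.05. For the bcCML effect minus the AML effect, 0 members passed and 0% of all genes did, with 5 members and 9.37% of all genes at an unadjusted p under 0.05 (limma). Beside Itga1, the smallest were Ncam1 (-1.27 ± 0.49, adjusted p 0.449), Itgam (-0.67 ± 0.29, 0.503), Itgb7 (1.96 ± 0.86, 0.518) and Jam2 (2.12 ± 0.93, 0.52).

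**Figure D4:**
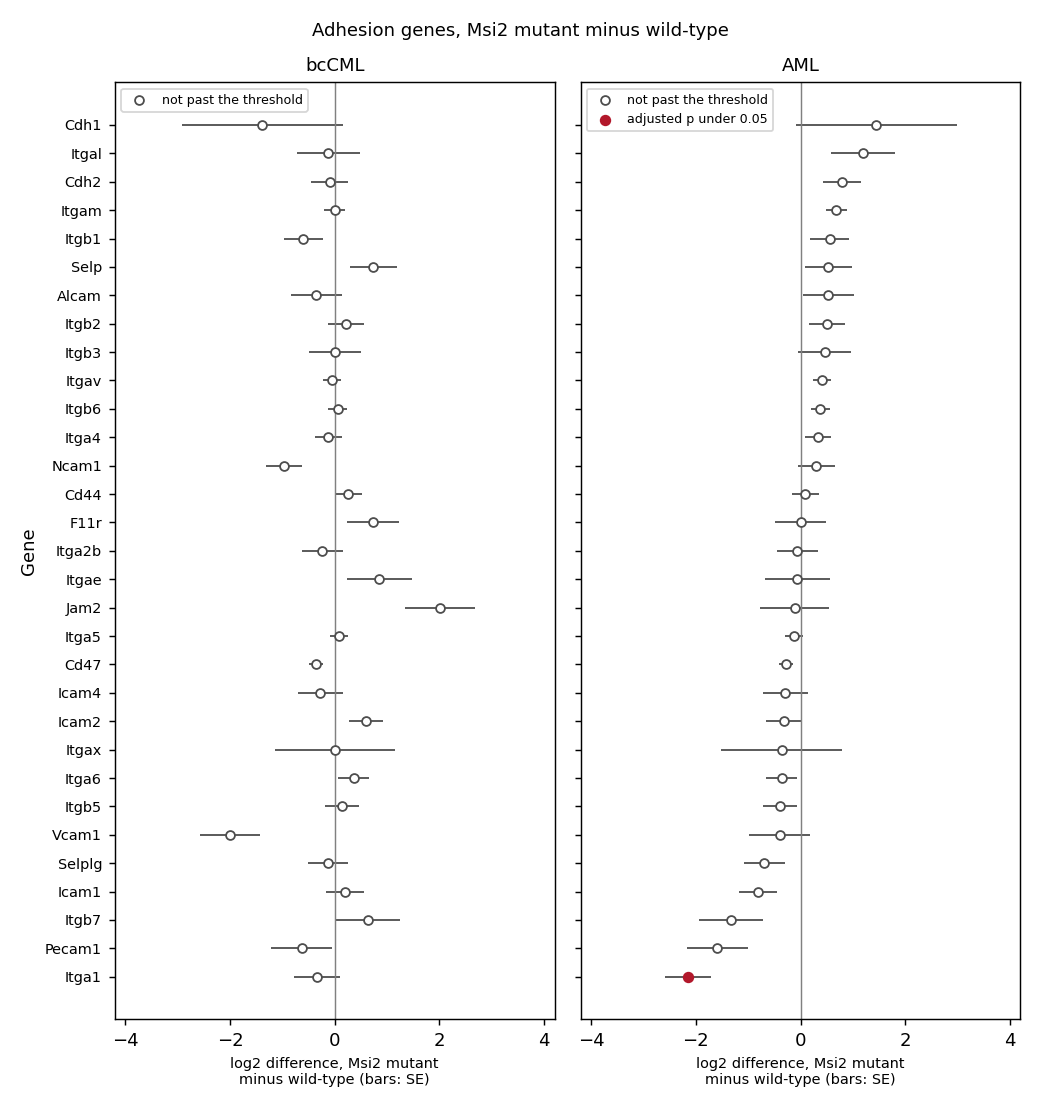
Log2 difference, Msi2 mutant minus wild-type, of each of the 31 tested adhesion genes (rows, sorted by the AML value) in bcCML (left) and AML (right), with SE as bars. Itga1 in AML, at -2.14, is the only filled point.

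**Figure D5:**
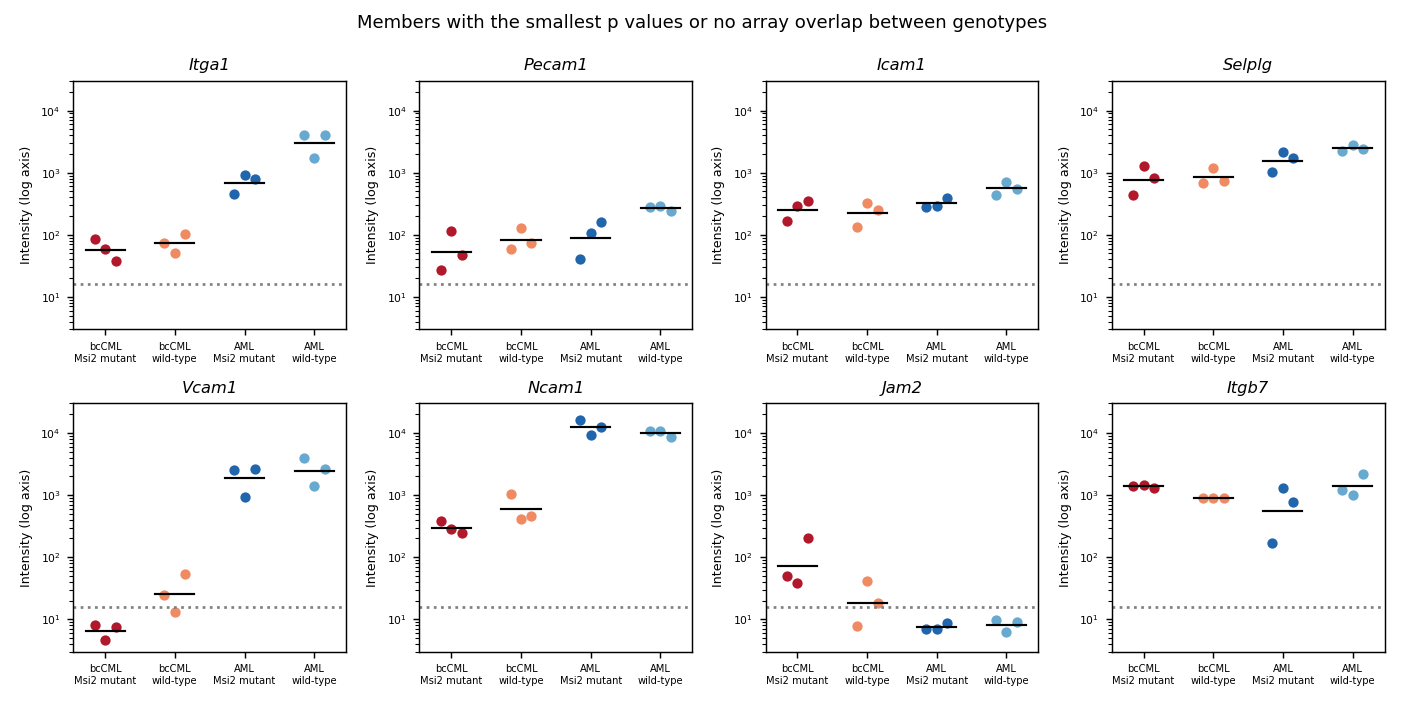
Intensity of 8 adhesion genes on each array (points, log axis), with the bar at the mean of the log2 values and the dotted line at 16 units. In AML, Itga1, Pecam1, Icam1 and Selplg lie lower on all mutant arrays, and in bcCML Vcam1 and Ncam1 do.

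Genes that work with these receptors were taken from 6 lists of 117 genes that are not members, of which 74 were tested. They cover integrin activation, focal adhesion signalling, matrix ligands, enzymes that build selectin ligands, other adhesion molecules, and catenins with their adaptors. Between the leukaemias, 45 passed in mutant cells, 17 higher and 28 lower in bcCML, and 41 in wild-type cells, 15 higher and 26 lower, where 45.1% and 36.9% of all genes passed. The same shares stand behind the counts of each list below. In Msi2 mutant against wild-type cells, 1 passed in AML and 0 in bcCML (limma), where 1.52% and 0.139% of all genes did. An unadjusted p under 0.05 (limma) was found for 13 of the 74 in AML and 7 in bcCML. Of all genes, 14.2% had one in AML and 8.32% in bcCML.

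The gene that passed in AML was Nid2, which encodes nidogen 2, a basement membrane protein. It read 26.9, 77.7 and 21.9 units in mutant AML, against 7.93, 4.51 and 4.69 in wild-type AML, at least 2.23-fold higher in the mutant (adjusted p 0.0146, limma). All 6 bcCML arrays lay at the floor for Nid2.

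In integrin activation, 10 of 16 tested genes passed in mutant cells, 2 higher and 8 lower in bcCML, and 6 in wild-type cells, 2 higher and 4 lower. Cyth1, a binder of the Itgb2 tail, averaged 39.8 ± 4.35 units in mutant bcCML, against 160 ± 20.9 in mutant AML (SD, n = 3 arrays each, log2 -2, adjusted p 4.81e-06, limma). Apbb1ip and Skap2, adaptors of this step, fell by 1.89 and 1.18 on the log2 scale in mutant bcCML. In wild-type cells Skap2 fell by 0.73, and Apbb1ip gave -0.78 with an adjusted p of 0.0502 (limma). Rapgef3, an activator of Rap, was higher in wild-type bcCML by 2.09 ± 0.35 (log2, SE, adjusted p 0.00116, limma), and gave 0.90 in mutant cells (0.0612).

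In focal adhesion signalling, 12 of 22 passed in mutant cells, 2 higher and 10 lower, and 12 in wild-type cells, 3 higher and 9 lower. Tns3, a tensin that links integrins to actin, fell by 4.58 and 3.48 on the log2 scale in mutant and wild-type bcCML (adjusted p 1.52e-06 and 1.44e-05, limma). Fgr, a kinase of the Src family in myeloid cells, was dim on all mutant bcCML arrays and at least 54.2-fold lower there than in mutant AML.

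Among 9 matrix genes tested, 3 were higher and 3 lower in mutant bcCML, and 3 higher and 2 lower in wild-type bcCML. Fn1, which encodes fibronectin, averaged 33.4 ± 20.3 units in wild-type bcCML, against 3832 ± 1580 in wild-type AML (SD, n = 3 arrays each, adjusted p 0.000578, limma). Lamc1, a laminin chain, was at least 3.81-fold higher in mutant bcCML and at least 3.92-fold higher in wild-type bcCML. Of 12 enzymes that build selectin ligands, 5 were higher and 2 lower in mutant bcCML, and 4 and 4 in wild-type bcCML. Fut4, a fucosyltransferase, fell by 5.15 and 3.96 on the log2 scale in mutant and wild-type bcCML (adjusted p 5.83e-06 and 4.89e-05, limma).

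Of 9 other adhesion molecules, 1 was higher and 4 lower in mutant bcCML, and 1 and 5 in wild-type bcCML. Podxl, which encodes the sialomucin podocalyxin of platelets and endothelium, averaged 3339 ± 395 units in mutant and 2521 ± 241 in wild-type bcCML, against 5.34 and 5.07 in mutant and wild-type AML (SD, n = 3 arrays each). It was at least 208-fold higher in mutant and at least 157-fold higher in wild-type bcCML. Sirpa, the receptor for Cd47, fell by 6.28 and 4.36 on the log2 scale in mutant and wild-type bcCML (adjusted p 1.56e-06 and 2.88e-05, limma), while the probe sets of Cd47 differed as given with Cd47. Among 6 catenins and adaptors tested, 4 were higher and 1 lower in mutant bcCML, and 2 and 2 in wild-type bcCML. Tjp1, a scaffold that binds the tail of F11r, was at least 146-fold higher in mutant and at least 126-fold higher in wild-type bcCML, and Jup, which encodes plakoglobin, fell by 5.14 and 4.42 on the log2 scale.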

How the data were processed

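RNA was measured on 12 Affymetrix arrays, 1 per sample, in 4 groups of 3, grouped by their labels. The authors deposited linear intensity values for each probe set, and the submitters' processing notes name GCRMA. Its version and options are not given in the sources used here. This method corrects for background by probe sequence and presses dim probe sets onto a floor, so changes of dim genes are only partly measured. Of 45037 probe sets, 34945 carried 1 gene symbol in the platform annotation used, 932 carried several and 9160 were not listed. Only the first kind was named, with symbols updated through RefSeq for 34741.

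Log2 intensity was taken with no pseudocount. Probe sets were tested if log2 exceeded 4 on at least 3 of 12 arrays, and the probe set with the highest mean stood for its gene, which left 10817 genes. Group means over all 12 arrays came from limma 3.58.1 (R 4.3.3, 8 residual and 2.19 prior degrees of freedom), and tests were two-sided. Benjamini-Hochberg adjustment ran over the tested genes, or over all passing probe sets where stated, with a threshold of 0.05. The 6 contrasts were Msi2 mutant minus wild-type in each leukaemia, their mean and difference, and bcCML minus AML in each genotype. The bcCML minus AML contrasts use the same arrays as the mutant contrasts, so they are not independent of them. Where a group was below 16 units on all arrays, the ratio is a bound, the mean log2 of the brighter group set against 16 units. The fit was tested on simulated data. The 3 arrays per group limit the precision.

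The members and lists were chosen with earlier results of these data known. Values on every array are given for members past the threshold and their pair partners, and up to 3 genes of a list are named by smallest p. Titles name biological replicates, with no more on their origin. Correlations between replicates ran from 0.938 to 0.981. Replicate numbers recur in every group. In bcCML, deviations from group means had correlations of 0.396, 0.364 and 0.278 between mutant and wild-type arrays of a number, which hints at pairs on the data alone, with no stated design behind it. All values given come from the fit without a block, and the block was an alternative. The AML correlations were -0.055, -0.121 and -0.030. Between the leukaemias they were 0.016, 0.235 and 0.111 in wild-type and 0.036, -0.024 and -0.076 in mutant cells, with no such hint. Alternatives changed the scale, filter, probe set rule, normalization, spread estimate, array weights, arrays fitted and replicate block.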

Additional observations from a re-analysis of the deposited data

How the results depend on the processing

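The AML count of 1 member, Itga1, was the least stable. It became 0 with no filter (Itga1 adjusted p 0.0987, limma), with each array centred on its median (0.0733), with only the groups compared in the fit (0.207, where 0 of all genes passed) and with the replicate block (0.14), and 5 with array weights (Itga1, Itgal, Itgav, Itgb6 and Cdh2). The fits that left out an array gave 0 to 1, and the 1 was Itga1 without AML wild-type replicate 2, Cdh2 without AML wild-type replicate 3 and Itgal without AML mutant replicate 1. The mean effect over both leukaemias was 0 in all settings but array weights, with 3 (Itga1, Vcam1 and Cd47), and gave 0 to 1 with an array left out, the 1 being Itgal without AML mutant replicate 1. The bcCML effect and the difference of effects stayed at 0 in every setting run, the replicate block included. The bcCML and AML counts of 17 in mutant and 17 in wild-type cells ran from 13 to 19 and from 15 to 20 over the alternatives, and from 15 to 18 and from 13 to 18 with an array left out. With the replicate block they were 18 and 17. The replicate block ended no other call of a named member. Itgae in mutant cells was lost with no filter (0.0878) and with only the groups compared (0.0663), as was Itgax there (0.0551 and 0.0711), and Itga5 with only the groups compared (0.0906) and with the mean over probe sets (0.713). In wild-type cells Pecam1 was lost with no filter (0.0998), and Cdh2 with no filter (0.104), median centring (0.0583), log2(intensity + 16) (0.0532), the mean over probe sets (0.0801), limma-trend (0.0557) and only the groups compared (0.117). The cause of these changes was not tested. No named value changed sign. Dim genes near the floor limit what the arrays can show.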
